A study of Mus musculus with 25 samples.

Results

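Parental embryonic stem (ES) cells and uninduced TKO cells were compared by H3K27ac HiChIP through the interactions listed for each and the contact counts behind them. Both groups carry the cell line name V6.5 in their labels and were grown in 2i medium. The group called ES consists of V6.5 embryonic stem cells in KO-DMEM, with 2 libraries. The group called TKO-0h consists of the cells labelled TKO that received no doxycycline, with 3 libraries. A further group, TKO-24h, holds 3 libraries of the same labelled cells after doxycycline for 24 hours and is used below only for values set beside the main comparison. The labels do not say what the letters TKO stand for, which genes or alleles the line carries, whether it is 1 clone, or whether replicates came from separate cultures. The 5 libraries compared are among 25 samples of the series, which follows KLF4 and enhancer contacts in pluripotency.

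HiChIP ligates DNA segments that are near each other in fixed nuclei and then enriches those that carry a chosen protein or histone mark. H3K27ac marks active enhancers and promoters, so a contact in such a library links segments of which at least one tends to be active. In mouse ES cells, Pou5f1 (Oct4), Nanog and Krüppel-like factors belong to the network that holds the naive state, and 2i medium supports that state by blocking MEK and GSK3. An interaction here is a pair of 10 kb bins on 1 chromosome, and its value is the number of contacts counted between them. Because cells are measured in bulk, fewer cells with a contact and fewer contacts per cell cannot be told apart.

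The ES list held 75466 interactions and the TKO-0h list 93248. The ES libraries had 166.5 M and 168.4 M contacts in all (M for mega), against 80.5 M to 109.9 M in the TKO-0h libraries. An interaction of the ES list had a median of 45 and 47 counts in its libraries, and one of the TKO-0h list 27 to 35. Counts of replicates scattered little more than counting noise, with chi-square per degree of freedom from 1.01 to 1.04. No difference beyond sampling noise was detected between TKO-0h replicates 2 and 3 (chi-square p = 0.0762 over 30024 interactions), and they were counted as 1 sample, which leaves 2 samples against 2. The p-values below therefore measure only the spread between these samples, which may be technical. edgeR estimates that spread with information pooled over all features. A very small p-value thus does not rest on the few samples of that feature alone, and its size depends on the fit. The TKO protocol names Nextera primers and paired reads and the ES protocol does not, so line and library preparation cannot be told apart, and no preparation holds both groups.

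Counts were put on a common scale by contact totals and trimmed mean of M-values (TMM) factors, and a level below is a CPM on that scale, taken over the contacts of the whole library and called normalized CPM. The factors were 0.893 and 0.913 for ES and 1.08 and 1.13 for TKO-0h, since listed interactions took a smaller share of all contacts in ES. Interactions in both lists held 2.10% and 2.15% of the contacts in ES and 2.58% to 2.72% in TKO-0h. Scaling by contact totals alone moved the median change over all interactions to −0.29 (log2) and over all genes to −0.31. Changes are given relative to that shift, and direction is ES minus TKO-0h throughout.

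Promoters of 4 genes whose contacts are described below are shown here, a pair higher and a pair lower in ES, with the Krüppel-like factor motif GGGNGTGG in capitals where it occurs on either strand. They come from RefSeq for GRCm38.p6 (the mm10 build of the files), run from 250 bases before to 50 after the annotated start, and each lies in the bin to which the authors assigned the gene. The Pou5f1 window is chr17:35505782-35506081 on the plus strand, that of Utf1 is chr7:139943606-139943905 on the plus strand, that of Pramel7 is chr2:87492369-87492668 on the minus strand, and that of Tfcp2l1 is chr1:118627695-118627994 on the plus strand.
Pou5f1: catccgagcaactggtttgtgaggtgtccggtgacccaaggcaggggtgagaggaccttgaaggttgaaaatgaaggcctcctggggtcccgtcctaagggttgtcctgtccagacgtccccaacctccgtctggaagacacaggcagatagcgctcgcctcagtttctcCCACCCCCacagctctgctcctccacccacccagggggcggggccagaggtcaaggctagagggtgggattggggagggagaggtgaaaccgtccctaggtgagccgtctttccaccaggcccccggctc
Utf1: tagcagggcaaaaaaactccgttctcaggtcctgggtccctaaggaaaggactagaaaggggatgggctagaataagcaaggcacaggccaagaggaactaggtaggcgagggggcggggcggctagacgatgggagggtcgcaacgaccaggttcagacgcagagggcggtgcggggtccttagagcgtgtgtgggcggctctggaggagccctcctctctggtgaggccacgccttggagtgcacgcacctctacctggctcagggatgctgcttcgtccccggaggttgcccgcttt
Pramel7: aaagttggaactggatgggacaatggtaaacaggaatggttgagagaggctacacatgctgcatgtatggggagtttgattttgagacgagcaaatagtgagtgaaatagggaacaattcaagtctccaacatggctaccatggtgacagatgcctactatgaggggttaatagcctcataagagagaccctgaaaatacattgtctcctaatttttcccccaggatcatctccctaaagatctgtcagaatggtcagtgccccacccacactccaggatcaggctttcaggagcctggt
Tfcp2l1: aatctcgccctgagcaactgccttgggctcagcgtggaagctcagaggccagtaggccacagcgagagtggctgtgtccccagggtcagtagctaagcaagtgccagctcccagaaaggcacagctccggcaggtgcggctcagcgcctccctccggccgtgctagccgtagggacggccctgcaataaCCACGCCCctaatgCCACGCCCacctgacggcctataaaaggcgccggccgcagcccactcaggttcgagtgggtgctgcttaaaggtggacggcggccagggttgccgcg
RefSeq has a second Pou5f1 start in the same bin, whose window at chr17:35508557-35508856 is not shown and holds no match. The motif occurs once in the Pou5f1 window shown and at 2 places in that of Tfcp2l1, and its letters are not in the other two. Of 32851 RefSeq promoter windows of this length, 17.6% hold it. The octamer ATGCAAAT, searched on both strands, is in none of the 4 and in 1.74% of all windows.

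The lists shared 58574 interactions, which is 77.6% of the ES list (95% Wilson interval 77.3% to 77.9%) and 62.8% of the TKO-0h list (62.5% to 63.1%). Intervals of shares cover counting error only. When each anchor was allowed to lie 1 bin away, 93.2% of the ES list and 83.1% of the TKO-0h list had a partner. When both lists were cut at a mean of 6 deposited CPM (contacts scaled to the depth of the same chromosome), 88.2% of the ES list and 54.2% of the TKO-0h list were shared.

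Among the 58574 shared interactions, 9678 (16.5% of those tested) differed at a Benjamini-Hochberg adjusted p under 0.05 by the quasi-likelihood test of edgeR. Of these, 4326 (7.39%) were higher in ES and 5352 (9.14%) lower, with median changes of 0.64 and −0.65 on the log2 scale, or 1.56-fold and 1.57-fold. Scaled by contact totals only, 959 were higher and 17204 lower. DESeq2 called 1578. Leaving out ES replicate 2 left 5751 calls and leaving out ES replicate 1 left 6335. Every shared interaction had passed the authors' CPM cutoff in all 5 libraries, so one that is absent in either line cannot appear among these calls.

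Adjacent bins leaned to TKO-0h and mid-range pairs to ES. Of 17119 pairs of adjacent bins, 15.6% were lower in ES and 6.37% higher, with a median change of −0.10. Of 8607 pairs 40 to 50 kb apart, 5.21% were lower and 8.01% higher, with a median of 0.09. These pairs had a median of 157 counts over the 5 libraries, against 291 for adjacent bins, so the shares called are not matched for depth. Adjacent bins held 39.97% and 40.02% of the shared counts in the ES libraries and 42.1% to 42.2% in the TKO-0h libraries, with no overlap. The part that library preparation has in this difference of a few percent was not tested. Pairs with a gene at both anchors also leaned to ES, with 7.73% of 5510 higher and 4.05% lower, while pairs with no gene at either anchor leaned the other way, with 7.65% of 29419 higher and 11.3% lower. Of the 16600 shared interactions that the ES KLF4 HiChIP list also holds, 9.27% were higher and 12.9% lower. Of the others, 6.64% were higher and 7.66% lower, and these had fewer counts, with a median of 191 over the 5 libraries against 274.

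**Figure D1:**
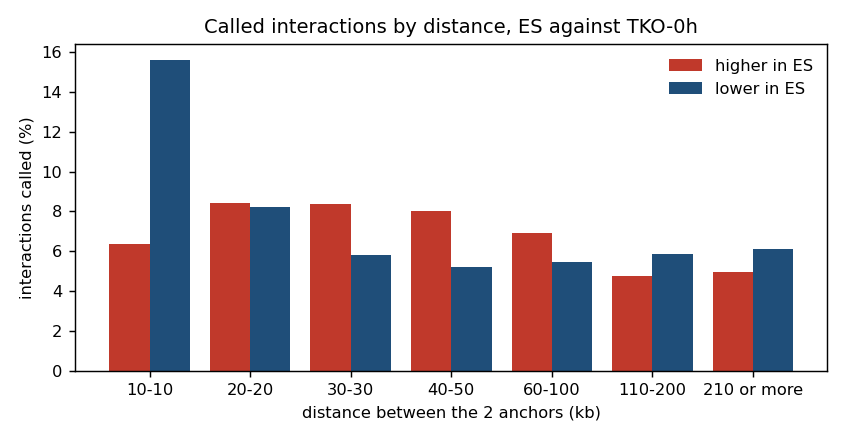
Share of shared interactions called higher (red) or lower (blue) in ES at an adjusted p under 0.05, in percent, by distance between the anchors in kb. Lower calls reach 15.6% for adjacent bins and stay between 5.21% and 8.22% at longer distances. Median counts over the 5 libraries fall from 291 for adjacent bins to 118 at 210 kb or more, so depth is not matched.

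Among pairs that touch a bin with a gene, the strongest single gain in ES was at Lefty2, which encodes a secreted antagonist of Nodal signalling. The pair chr1:180880001-180890000 and chr1:180890001-180900000, whose second bin is that of Lefty2, had 1.44 and 1.48 normalized CPM in ES and 0.395, 0.3502 and 0.406 in TKO-0h. This is 3.79-fold higher (log2 1.92 ± 0.14 SE, edgeR adjusted p = 1.21e-19). Others among the largest gains were a 90 kb pair with the bin of Dusp1, a MAP kinase phosphatase, at 2.95-fold, and a pair at the bin of Dnmt3l and Aire at 2.66-fold; Dnmt3l is a cofactor of de novo DNA methylation. A 60 kb pair at Slc35e1 on chromosome 8 was 2.80-fold higher, with a log2 change of 1.49 that became 1.19 when each chromosome was scaled by its own contacts. In all these pairs both ES libraries lay above all TKO-0h libraries, as the naming rule required.

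Among pairs that touch a bin with a gene, the strongest single loss in ES joined the bins of Ffar2 and Ffar3. These are neighbouring genes for receptors of short-chain fatty acids. The pair chr7:30820001-30830000 and chr7:30850001-30860000 had 0.343 and 0.286 normalized CPM in ES and 1.08, 1.13 and 1.27 in TKO-0h, which is 3.67-fold lower in ES (log2 −1.87 ± 0.15 SE, edgeR adjusted p = 8.48e-17). A pair at S1pr1, a receptor for sphingosine-1-phosphate, followed at 3.45-fold lower. Pairs at Rnf7, a RING subunit of cullin ubiquitin ligases, and at 1700001K19Rik were both 3.22-fold lower, and a pair at Fabp12, of the fatty acid binding protein family, was 3.20-fold lower. Of these 9 pairs, DESeq2 called 6 and returned no adjusted p for those at 1700001K19Rik, Dusp1 and Slc35e1, while each of the 9 kept its call without any 1 library.

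Chromosome 8 stood apart from all others. It took 6.01% and 6.05% of the contacts in the ES libraries and 4.93%, 4.90% and 4.90% in the TKO-0h libraries, a ratio of 1.23. On the other 19 chromosomes the ratio ran from 0.945 to 1.03. With 2 samples a side, the exact two-sided permutation p is 0.333, the smallest this design allows. The share was 4.94% to 4.96% in TKO-24h and 4.986% and 4.997% in fibroblast H3K27ac libraries, while 4 KLF4 HiChIP libraries of ES cells had 6.11% to 6.34%. The authors' CPM is relative to the contacts of the same chromosome, so it does not show this difference.

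The shift ran along the whole chromosome. In windows of 10 Mb with at least 20 shared interactions, all 13 windows of chromosome 8 had a median change above 0, from 0.05 to 0.41, against 97 of 241 windows elsewhere, whose highest was 0.22. Of its 2803 shared interactions, 23.9% were higher in ES and 3.57% lower, and the median change was 0.28. Of 430 genes tested on it, 211 were higher and 22 lower. When each chromosome was scaled by its own contacts, with TMM factors, 139 of these interactions were higher and 271 lower, with a median of −0.01, against 6.9% higher and 8.65% lower of all (15.6% called). Of the genes, 46 were then higher and 69 lower, against 14.7% and 14.0% of all (28.8% called). A gain of chromosome 8 is known from cultured mouse ES cells; copy number was not measured here, and its part in the difference was not tested. Genes on chromosome 8 are given below with both values.

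**Figure D2:**
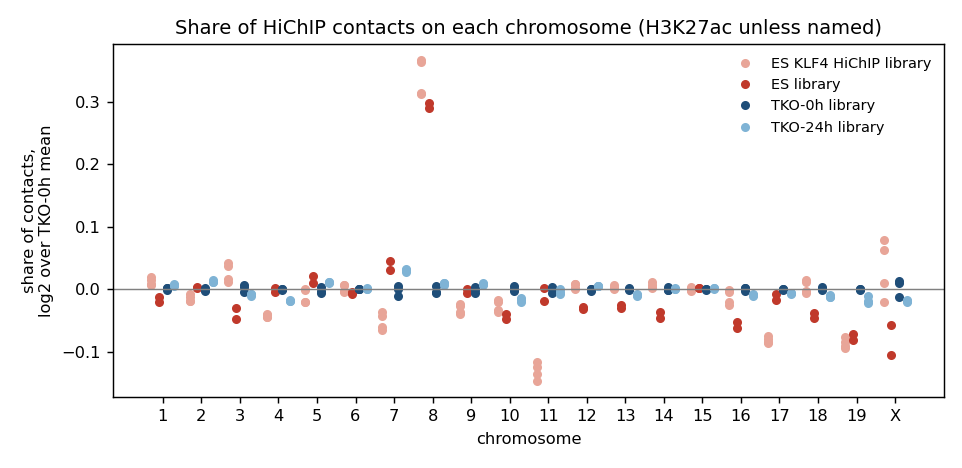
Share of contacts on each chromosome as log2 over the TKO-0h mean, 1 point per library, for ES (red), ES KLF4 HiChIP (pink), TKO-0h (dark blue) and TKO-24h (light blue). The H3K27ac libraries of ES cells have a mean of 0.29 on chromosome 8, the ES KLF4 libraries lie above it, and TKO-24h lies close to 0.

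For genes, contacts of all shared interactions that touch the gene's bin were summed, which gave 7860 units from 9702 genes; genes with the same interactions count as 1 unit. Of these, 1261 (16.0%) were higher in ES and 1182 (15.0%) lower at an adjusted p under 0.05 (31.1% in all), and DESeq2 called 870. Scaled by contact totals only, 170 were higher and 4328 lower, and of the 1261 higher units 486 then lay below 0.

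The genes that gained most in ES were led by the Lefty2 locus. The Lefty2 bin had 1.99 and 2.00 normalized CPM in ES and 0.647, 0.690 and 0.779 in TKO-0h, 2.87-fold higher (log2 1.52 ± 0.11 SE, adjusted p = 2.88e-34). With chromosome scaling its log2 change was 1.54 and its edgeR adjusted p 7.64e-18. Within 60 kb of the Lefty2 bin on each side, 8 of 10 shared interactions were higher in ES and none was lower, with a median change of 0.89. Others among the 10 genes with the largest gains were Rnf165 (2.12-fold), Gm12299 (2.09-fold), the unit of Leng8 and D030047H15Rik (2.06-fold), Elmo1, a regulator of Rac signalling (2.04-fold), Tcf15, a bHLH transcription factor (2.03-fold), the Mediator subunit gene Med23 (2.00-fold), Klf13 (2.00-fold) and Ccsap (1.97-fold). Most of these rest on 1 or 2 shared interactions. Ccsap is on chromosome 8, and its log2 change of 0.98 became 0.69 with chromosome scaling.

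The genes that lost most in ES were S1pr1, which rests on the single pair given above, with 0.282 and 0.241 normalized CPM against 0.882, 0.886 and 0.954 in TKO-0h (log2 −1.78 ± 0.17 SE, adjusted p = 1.08e-20), and the unit of Aspa and Spata22, which was 2.91-fold lower. Klhl22, an adaptor of a cullin ligase, was 2.90-fold lower, and the unit of Atg16l2 and Stard10 was 2.70-fold lower. Each of these 4 units rests on 1 shared interaction. Pramel7, a PRAME family gene active in the inner cell mass, had 2.02 and 2.06 in ES and 5.36, 5.75 and 5.41 in TKO-0h, 2.67-fold lower (log2 −1.42 ± 0.07 SE, adjusted p = 2.84e-62). All 12 shared interactions within 60 kb of its bin, which include those of its neighbour Pramel6, were lower in ES, from −0.73 to −1.58. Ffar3 and Ffar2 were 2.69-fold and 2.60-fold lower, with all 4 shared interactions of each gene lower. Nt5dc3 (2.59-fold), Fabp12 (2.54-fold) and Gm17501 (2.37-fold) completed the 10.

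Of 22 pluripotency factor units tested, 12 were higher in ES (54.5%) and 2 lower (9.09%) on the TMM scale, against 16.0% and 15.0% of all genes. The median change was 0.18 against 0.00 over all genes. These genes had a median of 8.5 listed interactions in both lines, while all genes had a median of 3 shared ones. More contacts make a call easier, so the shares are not matched for depth. The gene lists here and below were chosen with earlier results of these data known. Their shares beside those of all genes are therefore descriptions and give no independent support. On chromosome 8 lie 4 of the 12, and of the 18 units elsewhere 8 were higher and 2 lower. With chromosome scaling 11 of the 22 were higher and 2 lower, with a median of 0.13. DESeq2 called 11 of the 22, and 11 of the 14 calls held without each library in turn. By contact totals without TMM, 5 of the 12 fell below 0 and the list had 5 higher and 10 lower calls. Pou5f1 had 9.76 and 10.2 normalized CPM in ES and 6.62, 6.56 and 7.11 in TKO-0h, 1.49-fold higher (log2 0.58 ± 0.06 SE, adjusted p = 1.74e-20). Nanog had 18.3 and 17.1 against 13.8, 14.5 and 14.4, 1.26-fold higher (log2 0.33 ± 0.05 SE, adjusted p = 1.44e-08); by contact totals without TMM its change was 0.02. Both ES libraries lay above all TKO-0h libraries at both genes. Mycn (0.66), Kdm5b (0.50), Sall4 (0.26), Rest (0.26) and Tcl1 (0.21) were also higher (log2). No bin of the gene annotation, which was taken from the TKO lists alone, is assigned to Sox2 or Esrrb. Contacts at these 2 genes were therefore not summed or tested. Among those that did not pass the test, Tbx3 was at 0.03 and Prdm14 at 0.02.

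The Krüppel-like factor genes Klf2, Klf4 and Klf5 did not move together. Klf2 had 10.5 and 11.6 in ES and 7.50, 8.27 and 7.64 in TKO-0h (log2 0.52 ± 0.06 SE, adjusted p = 3.00e-17). It lies on chromosome 8, and with chromosome scaling its change was 0.22 (adjusted p = 0.00147). Klf4 had 1.90 and 1.83 against 1.97, 2.30 and 2.04, and its change of −0.15 ± 0.08 SE did not pass the test (adjusted p = 0.154). Klf5 had 2.76 and 2.94 against 4.42, 4.56 and 4.36, 1.55-fold lower in ES (log2 −0.63 ± 0.07 SE, adjusted p = 8.83e-18). Of the other chromosome 8 genes in the list, Sall1 went from 0.50 to 0.21 and Nacc1 from 0.46 to 0.17 with chromosome scaling and kept their calls. Zfp42 (Rex1), at 0.16, changed sign to −0.14 and lost its call (adjusted p = 0.0676).

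**Figure D3:**
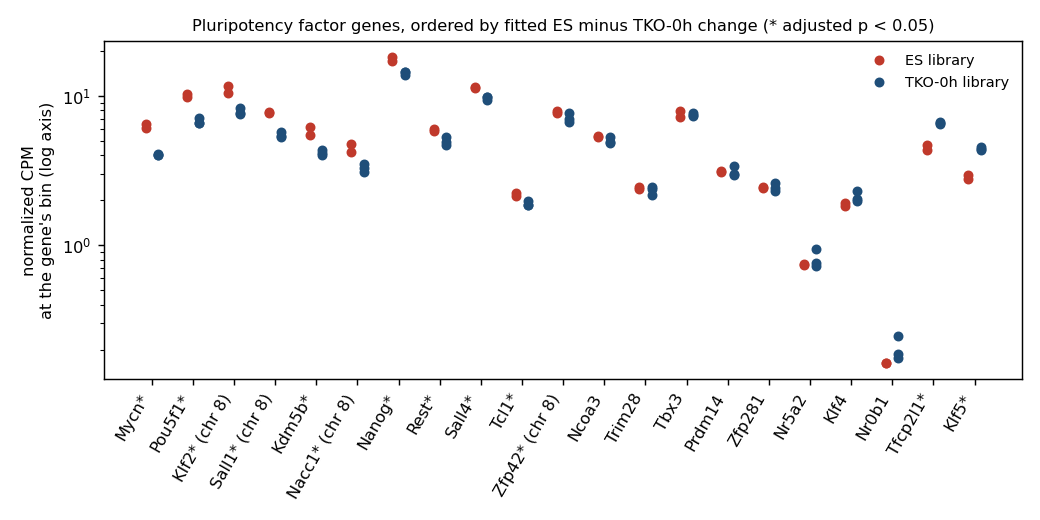
Normalized CPM at the bins of pluripotency factor genes (log axis), 1 point per library, ES in red and TKO-0h in blue, ordered by fitted change. The ES points lie above the TKO-0h points at Mycn, Pou5f1 and Nanog and below them at Tfcp2l1 and Klf5; by contact totals without TMM 5 of the list's 12 higher genes fall below 0.

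Single interactions showed where these differences lay. At Mycn all 14 shared interactions were above 0 and 8 passed the test, of which 2 did so without each library in turn; DESeq2 called 1. Among all 20 shared interactions within 60 kb of its bin on each side, 2 were higher and none lower, with a median of 0.15 and a summed level of 8.97 and 9.42 in ES against 8.38, 8.13 and 8.72, so most calls at Mycn lay farther away. The largest change joined the gene to the bin of the noncoding gene Platr19, 160 kb away, with 1.57 and 1.35 normalized CPM in ES and 0.814, 0.845 and 0.658 in TKO-0h (log2 0.91, adjusted p = 8.80e-09). That Platr19 bin, chr12:12780001-12790000, had more higher calls than any other bin, with 20 of its 25 shared interactions higher and none lower; it was picked after its values were seen. At Pou5f1 all 11 shared interactions were above 0 and 8 passed the test, 4 of them without each library in turn; DESeq2 called 4. The pair with a bin 20 kb downstream had 0.854 and 0.956 in ES against 0.403, 0.433 and 0.406 (log2 1.13, adjusted p = 2.09e-08). The ES KLF4 list holds 7 of the 11, and 28.3% of all shared interactions.

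At Klf5 all 8 shared interactions were below 0 and 5 passed the test, 4 of them without each library in turn; DESeq2 called 1. Its pair with a bin that starts 30 kb before its own had 0.175 and 0.169 in ES against 0.487, 0.433 and 0.548 (log2 −1.50, adjusted p = 6.20e-08). Within 60 kb of the gene's bin on each side, 28 of 36 shared interactions were lower in ES and none was higher, and their summed level was 21.5 and 20.8 in ES against 32.7, 34.8 and 35.3 in TKO-0h. The consecutive bins that begin at 99330001, 99340001 and 99350001 on chromosome 14, beyond the gene, each had 12 lower calls. They were picked after their values were seen. They lie in the same window, so their calls can be among those just counted and are not added support. At Tfcp2l1, which encodes a naive-state transcription factor downstream of LIF, the bin had 4.31 and 4.66 in ES and 6.62, 6.46 and 6.63 in TKO-0h (log2 −0.54 ± 0.06 SE, adjusted p = 6.42e-16), and 5 of its 7 interactions were lower, 3 of them without each library in turn; DESeq2 called 2. None of these 7 is in the ES KLF4 list. At other loci that were lower in ES, that list holds 3 of 8 at Klf5 and 2 of 3 at Pramel7. At loci that were higher, it holds 4 of 14 at Mycn and 3 of 21 at Nanog.

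**Figure D4:**
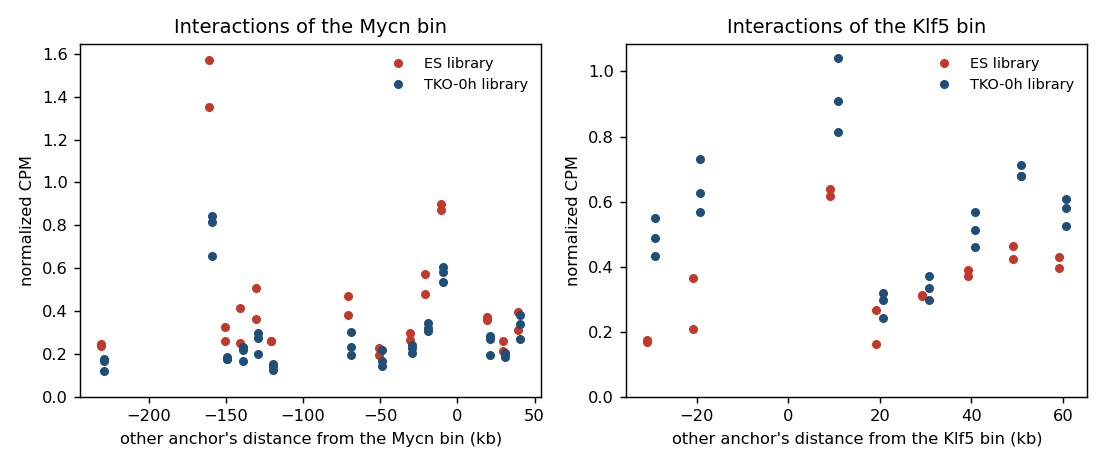
Normalized CPM of each shared interaction of the Mycn bin (left) and the Klf5 bin (right) against the distance of the other anchor in kb, 1 point per library, ES in red and TKO-0h in blue. The Mycn pair with the bin 160 kb before it reaches 1.57 in ES and 0.845 in TKO-0h, and at Klf5 the pair with the bin 30 kb before it is at most 0.175 in ES and at least 0.433 in TKO-0h.

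Of 19 ES cell marker units, 11 were higher in ES (57.9%) and 1 lower (5.26%) on the TMM scale, against 16.0% and 15.0% of all genes. The median change of the list was 0.18, and by contact totals without TMM 5 of the 11 fell below 0. By those totals the list had 4 higher and 8 lower calls. These genes had a median of 9 listed interactions in both lines, against 3 shared ones over all genes, so depth is not matched. Beside Lefty2, the unit of Dnmt3l and Aire had 2.41 and 2.78 in ES and 1.40, 1.39 and 1.35 in TKO-0h (log2 0.92 ± 0.09 SE, adjusted p = 8.45e-22). Utf1, a chromatin factor of undifferentiated cells, had 1.81 and 1.96 against 1.31, 1.14 and 1.21 (log2 0.63, adjusted p = 2.64e-09). Mybl2, a cell cycle transcription factor, was higher by 0.51 and Tdgf1, a Nodal co-receptor, by 0.43. Lin28a (0.47), Jarid2 (0.26), Fgf4 (0.25), Tdh (0.19), L1td1 (0.18) and Dppa5a (0.17) were higher as well. Tet2, which oxidises methylated cytosine, was the lower one at −0.29. The other 7 units did not pass the test. Among them Gdf3 (−0.17), Dppa2 (−0.13) and Dppa3 (−0.11) were below 0, and Dppa4 (0.10) and Fbxo15 (0.11) above it. DESeq2 called 6 of the 19, and 8 of the 12 calls held without each library in turn.

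Signalling genes were called about as often as all genes, of which 31.1% were called. In the LIF and STAT3 list 4 of 11 units were called (36.4%); 3 were higher, namely the feedback inhibitor Socs3 (0.53), the kinase gene Pim3 (0.48) and the receptor gene Lifr (0.23), and Tfcp2l1 was lower; Stat3 itself was at −0.17 with an adjusted p of 0.181. Of 8 Wnt target and feedback genes, 3 were lower (37.5%, against 15.0% of all genes) and none higher: Cdx1 (−1.13), a caudal homeobox gene, Tcf7l1 (−0.41), the repressor of Wnt targets in ES cells, and Apc (−0.25). DESeq2 called 1 of the 8, and Apc lost its call without 1 library (adjusted p = 0.0888). Of 11 FGF and ERK feedback genes, Spred2 (0.25) and Fos (0.22) were higher and Etv1 (−0.58) lower, and DESeq2 called none of them. Both Spred2 and Fos fell below 0 by contact totals without TMM.

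Markers of other cell types could be tested in part. Gene bins were taken from the TKO-0h and TKO-24h lists alone, so a marker listed only in ES has no bin. Counts of 0 in ES and 1 in TKO-0h are therefore favoured in advance. Of 24 fibroblast markers 3 could be tested; Fn1, tested with Apol7d, which shares its interactions, was lower in ES (−0.22), and Thy1, Col1a1 and Vim had 0 listed interactions in ES and 1 each in TKO-0h. Of 16 primitive endoderm markers 4 could be tested, with Lama1 (−0.75) and Sparc (−0.25), both genes of extracellular matrix proteins, lower in ES; Gata6 was at −0.26 with an adjusted p of 0.523, and the annotation has no bin for Gata4, Sox17, Sox7 or Pdgfra. Of 7 trophoblast markers tested, Tfap2a (−0.46) was lower; Cdx2, Elf5 and Gata3 have no bin, and Eomes had 1 listed interaction in ES and 0 in TKO-0h. None of the units of these 3 lists was higher in ES. Genes of the tested fibroblast, primitive endoderm and trophoblast units had medians of 2, 5.5 and 3 listed interactions in ES and 3, 5 and 3 in TKO-0h, with single genes up to 8 and 9. The tested pluripotency factors had a median of 8.5 in both lines, from 1 to 23, so the ranges overlapped.

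In the smaller lists, calls rest on few units and their shares are not read as results. Over all genes, 16.0% of units were higher and 15.0% lower. Of 7 formative and primed pluripotency genes tested, Zic2 (0.35) was higher and Dnmt3b (−0.36), a de novo DNA methyltransferase, lower. Of 3 two-cell-like genes, Zfp809 was lower (−0.43). None of these 3 calls held without each library in turn. Of 4 Hox units, Hoxc11 (−0.52), Hoxc13 (−0.26) and Hoxc12 (−0.25), neighbours in 1 cluster on chromosome 15, were lower; DESeq2 called none, and all 3 lost their call without 1 library (adjusted p = 0.2003, 0.219 and 0.0861). Among 8 imprinted units, Gnas was lower (−0.72) and Blcap higher (0.38). Neither of the 2 histone units passed the test. Among loci often used for transgenes, Thumpd3 was higher (0.37), and the unit of Gt(ROSA)26Sor and Setd5 was at 0.10 with an adjusted p of 0.175.

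Of 18 units of architectural and Mediator genes, 2 were higher and 3 lower, and the 27.8% called is close to the 31.1% of all genes. Stag1, a cohesin subunit gene, had 0.740 and 0.677 in ES and 1.69, 1.61 and 1.66 in TKO-0h, 2.32-fold lower (log2 −1.21 ± 0.11 SE, adjusted p = 1.97e-21). Both of its shared interactions were lower. Med13l (−0.66) was also lower. Crebbp (−0.23) was called lower although its groups overlapped, and lost its call with chromosome scaling (adjusted p = 0.140) and without 1 library (adjusted p = 0.351). Ldb1, which encodes a looping cofactor and shares its unit with Pprc1, was higher (0.60). The unit of Ctcf, on chromosome 8, was higher by 0.42, and by 0.12 with chromosome scaling (adjusted p = 0.125). Of 88 ribosomal protein gene units, 22 were higher (25.0%, against 16.0% of all genes) and 6 lower (6.82%, against 15.0%), with a median of 0.05; DESeq2 called 8, and 14 of the 28 calls held without each library in turn. By contact totals without TMM 11 of the 22 fell below 0 and 54 units were lower. Rpsa (0.61) was among the highest and Rps23 (−0.45) and Rps20 (−0.43) among the lowest of those called.

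**Figure D5:**
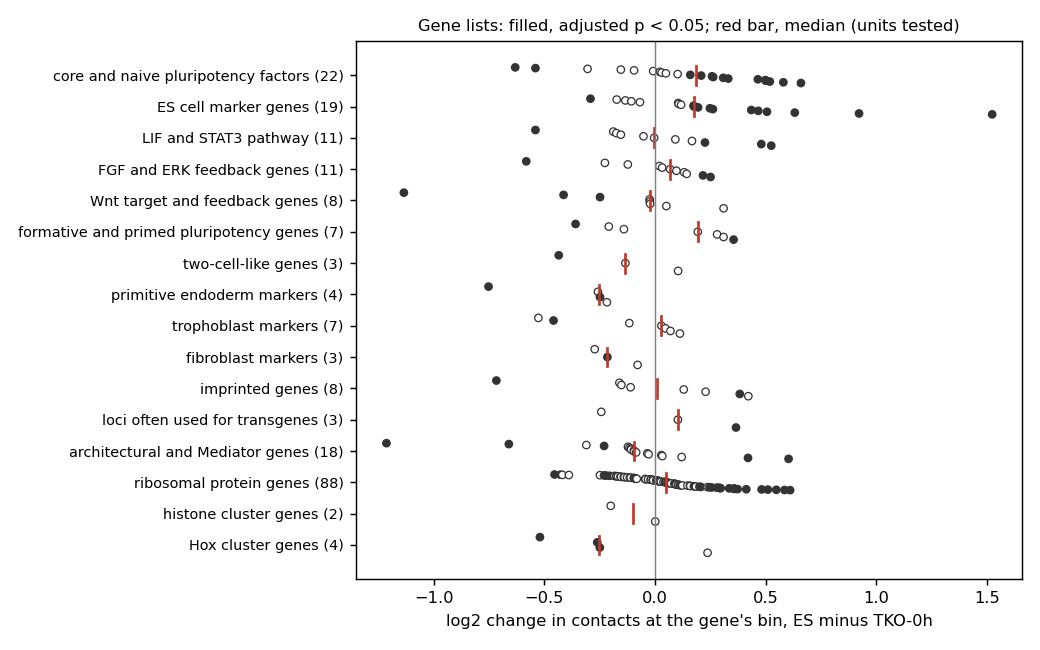
Log2 change in contacts at each gene's bin, ES minus TKO-0h, by gene list with the number of units tested; filled points have an adjusted p under 0.05 and red bars are medians. The pluripotency and ES marker lists have medians of 0.18, and the scale is that of TMM. By contact totals without TMM, 5 of the 12 and 5 of the 11 higher genes of these lists fall below 0. The lists were chosen with earlier results of these data known.

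Bins also differed in how many interactions were listed for them. The bin of Neat1, a nuclear long noncoding RNA gene, at chr19:5840001-5850000 had 37 in ES and 18 in TKO-0h, and bins in Rela (23 and 7) and Crtac1 (20 and 6) on the same chromosome followed. With 1 cutoff per library in place of the authors' cutoff per chromosome, these became 9 and 9, 6 and 4, and 5 and 2. In the other direction stood the bin of Eif2b5 on chromosome 16 (10 in ES and 31 in TKO-0h), a bin with Dsg2 on chromosome 18 (13 and 32) and the bin of Ubd on chromosome 17 (11 and 28), which kept their direction at 3 and 11, 3 and 12, and 3 and 10. Near Eif2b5, the bin chr16:20470001-20480000 had 16 of 27 shared interactions lower in ES, more than any other bin; it was picked after its values were seen.

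Interactions listed in 1 line alone had lower signal than shared ones, whose medians were 6.08 CPM in ES and 7.61 CPM in TKO-0h. The 16892 listed in ES alone had a median of 4.14 CPM, and 69.4% lay within 1 bin of a TKO-0h interaction. The 34674 listed in TKO-0h alone had a median of 5.07 CPM, and 54.6% lay within 1 bin of an ES interaction. Both kinds spanned longer distances than shared ones, with 40.6% and 30.3% reaching 50 kb against 22.2%. The ES KLF4 list held 9.40% of those in ES alone and 5.83% of those in TKO-0h alone, against 28.3% of shared ones. The TKO-24h list held 26.4% and 50.8%. The TKO lists keep only interactions with an H3K27ac peak at an anchor; of 14171 ES-alone interactions whose bins are both annotated, 14.8% had no TKO-0h peak at either and could not have entered the TKO-0h list.

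The strongest interactions in ES alone all lay near the start of chromosome 11, in bins with Sfi1. They had mean CPM of 140.4, 110.7 and 101.0 (SD 1.76, 0.934 and 0.824, n = 2). The first 2 lay within 1 bin of a TKO-0h interaction and were also in the fibroblast H3K27ac list. The last was in neither case, but it was also listed in TKO-24h at 138.5 CPM. The strongest in TKO-0h alone were on chromosome 19. The first was a pair with Rbm4 in its second bin (47.0 CPM, SD 5.02, n = 3). The others lay within Hells, a chromatin remodeller gene (40.4 CPM, SD 4.23, n = 3), and within Ddb1, a DNA damage-binding protein gene (38.0 CPM, SD 0.959, n = 3). All 3 were also listed in TKO-24h, at 38.2 to 42.3 CPM, and lay within 1 bin of an ES interaction.

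Calls after doxycycline for 24 hours are set beside these differences, though not on equal terms. In ES against TKO-0h, line and library preparation cannot be told apart. The ES libraries also had 166.5 M and 168.4 M contacts, against 68.3 M to 101.7 M in TKO-24h, so the shares are not matched for depth. Over 50106 interactions in all 3 lists, fitted together, ES against TKO-0h had 9650 calls (19.3%), with 4642 higher (9.26%) and 5008 lower (9.99%). TKO-24h against TKO-0h had 1759 (3.51%), with 401 higher (0.8%) and 1358 lower (2.71%). The comparisons share the TKO-0h libraries, and the difference between them was not tested. TKO-24h replicates 1 and 3 were counted as 1 sample (chi-square p = 0.989 over 46645 interactions). Without replicate 2, TKO-24h is therefore left with 1 sample. DESeq2 called 1724 and 181, and the TKO-24h count fell to 1020 without TKO-24h replicate 2 and 1050 without replicate 3.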

How the data were processed

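H3K27ac HiChIP was measured in 2 ES and 3 TKO-0h libraries, with 3 TKO-24h libraries beside them. Reads were aligned with Bowtie2 2.2.3 to mm10, per the submitters' processing notes; other steps are not given in the sources used here. The authors deposited, per list, the raw count of contacts of each interaction in each library and its CPM, which the values show to be relative to the contacts of the same chromosome. The listed interactions have a CPM of at least 3 in every library and a deposited p-value under 0.1. The deposited p-value and q-value columns were used only to filter lists in an alternative.

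Contact totals were computed as count over CPM. Counts were tested with edgeR 4.0.16 (filterByExpr, TMM, glmQLFit, glmQLFTest) in R 4.3.3, with Benjamini-Hochberg adjustment over all features and a threshold of 0.05; DESeq2 1.42.0 was an alternative. Scripts were tested on simulated data. Gene bins are the authors' and were taken from the TKO-0h and TKO-24h lists alone. Of 9381 genes with a RefSeq promoter, 94.5% have a RefSeq start in their bin. The members and gene lists were chosen with earlier results of these data known. A few genes that the rule names are not reported here. Named are the 5 interactions and 10 genes with the largest changes per direction among those called with no overlap between groups. The 5 interactions were taken only from those that touch a bin with a gene, so larger changes elsewhere can be unnamed. Also named are every called gene of the lists (of 28 ribosomal units, examples) and uncalled core factors. The 3 strongest interactions of each list alone and 3 bins per direction are named as well. Replicate numbers did not pair the libraries. Medians and counts per list are descriptions.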

Additional observations from a re-analysis of the deposited data

How the results depend on the processing

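Precision was limited by 2 samples a group and by counts of 27 to 47 per listed interaction. The main counts of calls were 9678 interactions, 2443 genes and, in the fit of 3 lists, 9650 for ES and 1759 for TKO-24h. Contact totals without TMM gave 18163, 4498, 17794 and 3047, and totals of each chromosome as offsets 17841, 4495, 17355 and 3058, most of them lower in ES or, for the last count, in TKO-24h. DESeq2 gave 1578, 870, 1724 and 181, and anchors at least 50 kb apart gave 1259, 486, 1221 and 133 among fewer features. A mean CPM of at least 6 left 6437 calls among 28452 interactions. A group was left with 1 sample without either ES library, without TKO-0h replicate 1 or without TKO-24h replicate 2. Leaving out 1 library gave 5751 to 7647, 1655 to 2121, 5670 to 9638 and 1020 to 1656; with ES reduced to 1 library, it is assumed to vary like the other group. The replicate block gave 7793 interactions and 2106 genes; same-numbered libraries did not deviate together (correlation −0.011), so the numbers pair nothing. The overlap, 77.6% of ES and 62.8% of TKO-0h, was 93.2% and 83.1% with anchors 1 bin away, 70.3% for both at equal length, 88.2% and 54.2% at a CPM of at least 6, 65.5% and 55.4% at 50 kb or more, 81.5% and 50.3% at a deposited FDR under 0.1, and 82.3% and 60.8% with 1 cutoff per library. The chromosome 8 ratio stayed between 1.22 and 1.23 without any 1 library. Relative to the median of all genes, Zfp42 reversed with chromosome offsets (−0.13), with these and TMM factors (−0.14) and at 50 kb or more (−0.064), where Jarid2 (−0.16), Rpl32 (−0.023) and Rps19 (−0.10) reversed as well. Of the 100 called genes named or counted in lists, 66 kept their call without each library in turn, 94 with chromosome scaling and 51 in DESeq2; the cause of these differences was not tested.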
